A study of Mus musculus with 32 samples.

Results

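The chromatin of unstressed orbitofrontal cortex (OFC) astrocytes carrying a Zbtb7a knockdown (Zbt-KD) was compared with that of unstressed astrocytes carrying the GFP control virus. Of 2267 regions in both peak lists, 648 lay in only one of them. These were 509 opened regions, listed in Zbt-KD control and not in GFP control, and 139 closed regions, listed in GFP control and not in Zbt-KD control. The lists were first brought to one scale on chromosomes 1 to 19. Peaks were joined across gaps of up to 6427 bp, and joined regions narrower than 6425 bp were dropped. A region was opened or closed when it had no 1 bp overlap with a region of the other list. The words opened and closed therefore describe presence in a list, not a measured change of signal.

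Both groups were adult male C57BL/6J mice without social stress that had received an AAV6 vector in the OFC. In Zbt-KD control (virus labelled ZBT, group labelled CON) the GFAP promoter, which is active in astrocytes, drove a microRNA against Zbtb7a. In GFP control the same promoter drove a non-targeting microRNA. Both vectors also carried GFP. Astrocytes of several pooled mice per sample were isolated by magnetic-activated cell sorting (MACs), and each group had 5 samples but only 1 deposited peak list. No spread between samples could be computed, so no p-value is given, and every interval below is a 95% interval over regions that covers counting error only. These intervals count neighbouring regions as independent, although 1 wide peak of another list can overlap several of them. The other 4 lists of the series came from Zbt-KD CSDS and GFP CSDS mice, which went through chronic social defeat stress, and from mice overexpressing ZBTB7A or GFP (labelled OE ZBT and OE GFP), which per the study's methods went through subthreshold defeat (SSDS).

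ZBTB7A, also known as LRF or Pokemon, is a transcription factor with a BTB domain and zinc fingers. It represses many of its targets, recruits the NuRD chromatin remodelling complex, and is best known for silencing fetal globin genes in red blood cell precursors. In ATAC-seq a transposase inserts adapters into accessible DNA, so a peak marks a stretch with more insertions than its surroundings. Promoters of active genes usually give such peaks.

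Few opened or closed regions were annotated to a promoter. The windows printed here are a small choice from the starts inside such regions, made after the values were seen. Olfr1247, Gm1979 and Olfr851 come from regions annotated to a promoter, Hbb-bs from the beta-globin locus, and Kdm4a from the strongest closed region. The windows are RefSeq promoters (GRCm38.p6, from 250 bases before to 50 after the start), read 5′ to 3′ on the strand of the gene. Capitals mark classical promoter elements on either strand, so that each is also marked as its reverse complement. The first is the CACCC element. The second is the element written CCAAT. The last, written TATAA, is the core of the TATA box, and neighbouring matches may overlap. The last window belongs to a closed region and the others to opened regions. A short sequence found in known ZBTB7A binding sites, GACCC, was also searched on both strands.
Hbb-bs, minus strand, chr7:103827879-103828178: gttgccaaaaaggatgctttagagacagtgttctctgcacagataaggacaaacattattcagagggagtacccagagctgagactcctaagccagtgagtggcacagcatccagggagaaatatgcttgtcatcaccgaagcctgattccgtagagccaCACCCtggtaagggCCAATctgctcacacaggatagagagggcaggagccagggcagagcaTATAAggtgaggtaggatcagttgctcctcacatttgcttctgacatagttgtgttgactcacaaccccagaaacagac
Olfr1247, minus strand, chr2:89610104-89610403: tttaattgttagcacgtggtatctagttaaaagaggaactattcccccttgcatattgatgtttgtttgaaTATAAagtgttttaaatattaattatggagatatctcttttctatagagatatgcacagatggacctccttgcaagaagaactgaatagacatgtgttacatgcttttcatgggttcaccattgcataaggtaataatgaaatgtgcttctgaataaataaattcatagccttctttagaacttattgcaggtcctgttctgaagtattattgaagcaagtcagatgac
Gm1979, minus strand, chr5:26004678-26004977: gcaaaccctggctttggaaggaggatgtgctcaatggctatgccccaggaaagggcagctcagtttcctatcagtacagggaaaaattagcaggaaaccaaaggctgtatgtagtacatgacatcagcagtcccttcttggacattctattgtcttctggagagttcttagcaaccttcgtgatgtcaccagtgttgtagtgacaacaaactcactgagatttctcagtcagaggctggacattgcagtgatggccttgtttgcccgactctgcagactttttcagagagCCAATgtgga
Olfr851, plus strand, chr9:19496500-19496799: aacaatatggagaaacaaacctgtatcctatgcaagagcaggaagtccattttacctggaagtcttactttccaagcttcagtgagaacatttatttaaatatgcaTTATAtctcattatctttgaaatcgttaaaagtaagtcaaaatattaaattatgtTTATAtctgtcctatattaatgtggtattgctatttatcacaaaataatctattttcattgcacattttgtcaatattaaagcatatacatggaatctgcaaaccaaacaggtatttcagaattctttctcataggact
Kdm4a, minus strand, chr4:118179994-118180293: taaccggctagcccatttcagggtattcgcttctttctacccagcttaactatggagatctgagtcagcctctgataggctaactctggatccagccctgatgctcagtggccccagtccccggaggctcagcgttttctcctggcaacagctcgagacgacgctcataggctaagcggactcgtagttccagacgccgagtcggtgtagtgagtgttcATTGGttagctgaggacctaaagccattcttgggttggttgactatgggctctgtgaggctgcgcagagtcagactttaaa
The adult beta-globin promoter (Hbb-bs) held 1 CACCC, 1 CCAAT and 1 TATAA, and was the only window of the 5 with all 3. Among all 31396 autosomal RefSeq promoters, CACCC occurred in 57.7%, CCAAT in 37.3% and TATAA in 24.9%. GACCC occurred in 0 of these 5 windows, against 44.3% of all autosomal promoters. It was present in 34.9% of the 126 promoters that overlapped an opened region and in 33.3% of the 15 that overlapped a closed region. No share is given for promoters in kept regions, and the difference from all promoters was not tested. Over whole regions the median GACCC density was 1.08 per kb in opened, 1.04 in closed and 1.06 in kept Zbt-KD control regions. The density of the autosomes was 1.25 per kb. A match is a description of the letters and not a binding site. Ttll11, Clec4a4 and Hbb-bh1 were among the other genes with a start in an opened or closed region.

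The Zbt-KD control list held 1302 peaks on the autosomes (172.2 Mb) and the GFP control list 5416 peaks (144.0 Mb), and their median widths were 32946.5 bp and 1976.5 bp. At one scale these became 1301 and 966 regions. Of the Zbt-KD control regions 39.1% were opened (interval 36.5% to 41.8%), and of the GFP control regions 14.4% were closed (12.3% to 16.7%). By length the differences were smaller. Opened regions made up 14.5 Mb, or 8.44% of the length of the Zbt-KD control regions, and closed regions 3.37 Mb, or 2.24% of the length of the GFP control regions. Of the length of kept regions, those with an overlap, 88.6% in Zbt-KD control and 95% in GFP control lay inside a region of the other list. Which list had more regions of its own depended on the scale. With deposited peaks as they are, 404 were opened and 1558 closed. Without the least width, the counts were 403 and 534, and with the upper 50% of each list by fold enrichment 135 and 199.

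**Figure D1:**
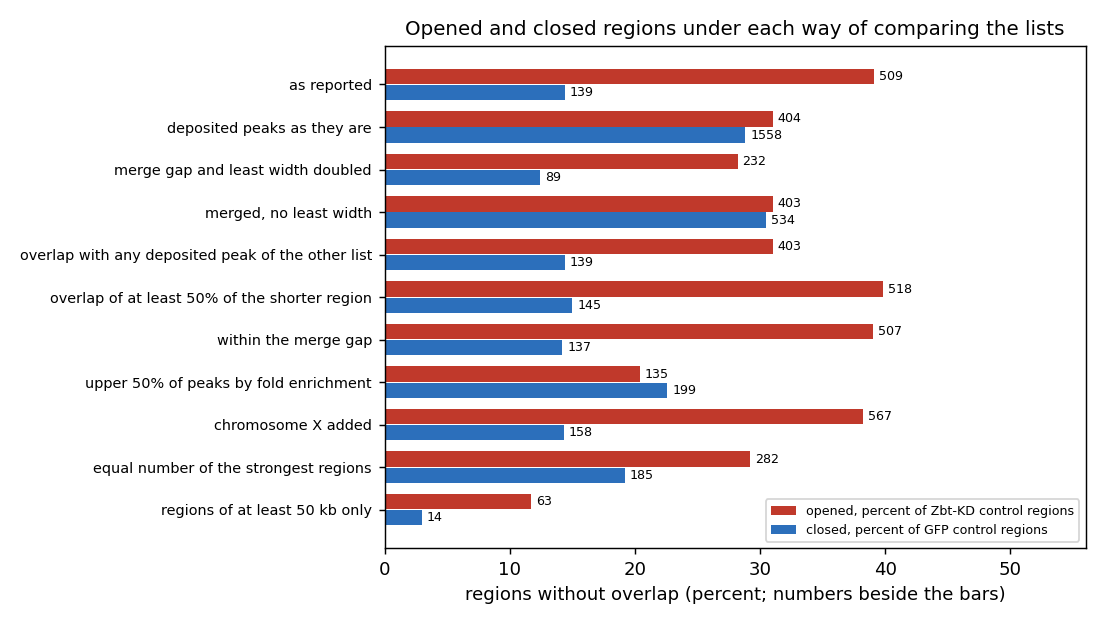
Share of Zbt-KD control regions opened (red, percent) and of GFP control regions closed (blue, percent) under each way of comparing the lists, with the number of regions beside each bar. The opened share is above the closed share in all but the comparison of the upper 50% of peaks by fold enrichment, while closed regions are more numerous than opened ones in 3 of the 11 comparisons.

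The rule's width limit also decided some single regions. Within 106 of the 509 opened regions (20.8%) there was a GFP control peak too narrow to remain after joining, and such peaks covered a median of 8.97% of the region (0.314% to 54.8%). The reverse could not occur, because the least width was that of the narrowest Zbt-KD control peak. The kept Zbt-KD control region with the least overlap shared 818 bp with GFP control, and the opened region closest to a GFP control region, near Gm10745, lay 3869 bp from it.

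Opened and closed regions were narrow within their lists. Part of this follows from the rule, because 1 bp of overlap keeps a region and a wide region has more room for it. The median width was 15.9 kb for opened regions (quartiles 9.65 kb and 28.4 kb) and 11.2 kb for closed regions (8.53 kb and 25.5 kb), against 91.6 kb for kept Zbt-KD control regions and 70.9 kb for kept GFP control regions. Fold enrichment, the peak caller's ratio of signal to background, can be compared only within a list. Its median for the strongest peak was 1.68 in opened and 2.03 in kept Zbt-KD control regions, and 1.75 in closed and 2.02 in kept GFP control regions. Among regions of 20 kb or narrower the medians lay closer together. They were 1.64 in opened and 1.67 in kept Zbt-KD control regions, and 1.72 in closed and 1.73 in kept GFP control regions. The share opened was 63.3% (133 of 210) under 10 kb and 5.45% (22 of 404) at 100 kb or more. For closed regions the same shares were 41.4% (55 of 133) and 1.36% (5 of 369).

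**Figure D2:**
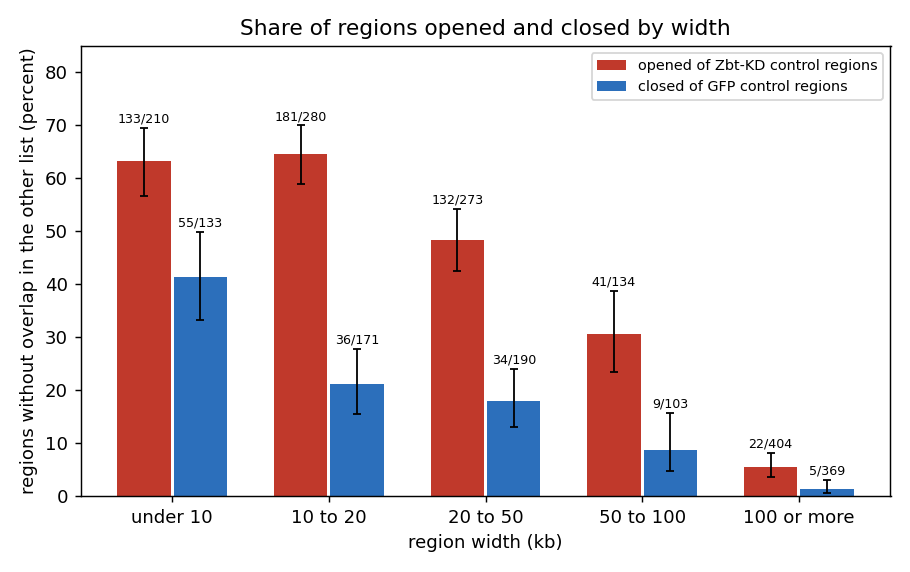
Share of Zbt-KD control regions opened (red) and of GFP control regions closed (blue) in 5 classes of region width (kb), in percent, with 95% Wilson intervals as bars and the counts above. Both shares are lowest at 100 kb or more, at 5.45% and 1.36%, and the opened share is above the closed share in every width class. Wide regions have more room for the 1 bp overlap that keeps them.

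Opened regions lay mostly between genes, as did the kept regions of both lists. Of the 509, 408 were intergenic (80.2%, interval 76.5% to 83.4%), 89 intronic (17.5%) and 4 annotated to a promoter (0.786%, 0.306% to 2.00%). Of the 139 closed regions, 120 were intergenic (86.3%, 79.6% to 91.1%), 18 intronic (12.9%) and 1 annotated to a promoter (0.719%, 0.127% to 3.96%). Of the kept regions, 79.0% in Zbt-KD control and 80.0% in GFP control were intergenic, 17.8% and 17.0% intronic, and 0.758% and 0.967% annotated to a promoter. The intergenic share differed between opened and closed regions by -6.17 percentage points (-12.2 to 1.26), an interval that includes 0. The strongest peak of an opened region lay a median of 167 kb from the nearest transcription start site (TSS), with 136 kb to 194 kb as the interval of the median, and that of a closed region 183 kb (124 kb to 246 kb). For kept regions the medians were 131 kb and 127 kb. Opened regions overlapped a coding gene in 29.3% of cases and closed regions in 19.4%, a difference of 9.85 points (1.57 to 16.9). For kept regions, which were wider, the shares were 42.9% in Zbt-KD control and 40.6% in GFP control. The difference was not adjusted for region width. A kept region of the same list lay within 100 kb of 41.7% of opened and 54.0% of closed regions, a difference of -12.3 points (-21.4 to -2.96). Another kept region lay within that distance of 55.9% of kept Zbt-KD control and 57.3% of kept GFP control regions.

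In base composition the intervals of opened and closed regions overlapped. The median GC content was 39.7% in opened regions (interval of the median 39.4% to 40.1%), 39.6% in closed (39.1% to 40.2%) and 39.6% in kept Zbt-KD control regions, all below the 41.9% of the autosomes. An L1 element, a common retrotransposon, lay at the centre of the strongest peak in 32.0% of opened, 33.8% of closed and 31.3% of kept Zbt-KD control regions. The density of coding TSSs was 6.33 per Mb in opened, 2.67 in closed and 6.80 in kept Zbt-KD control regions, against 8.68 over the autosomes. The closed value rests on 9 TSSs.

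Successive Zbt-KD control regions were often both opened, of which some follows from the share of 39.1% opened alone. In 106 runs, 2 or more opened regions followed each other with no kept Zbt-KD control region between them, and these runs held 388 of the 509 regions. A run could cover a long stretch without regions, and the spans ranged from 0.0276 Mb to 27.7 Mb with a median of 0.231 Mb. The most regions in a run were 9, in 2 runs, and 46 runs had 4 or more. Whether runs were more frequent than the share opened gives was not tested. Closed regions formed 27 such runs with 67 of the 139 regions, and 3 runs had 4 or more. Chromosome 3 had the most opened regions (55), followed by chromosome 2 (51) and chromosome 4 (45), and chromosome 19 had 1. The share opened was highest on chromosome 9, at 58.9% of 73 regions. The share opened exceeded the share closed on 17 of the 19 autosomes, the exceptions being chromosomes 11 (28.6% and 30.0%) and 19 (11.1% and 22.2%).

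**Figure D3:**
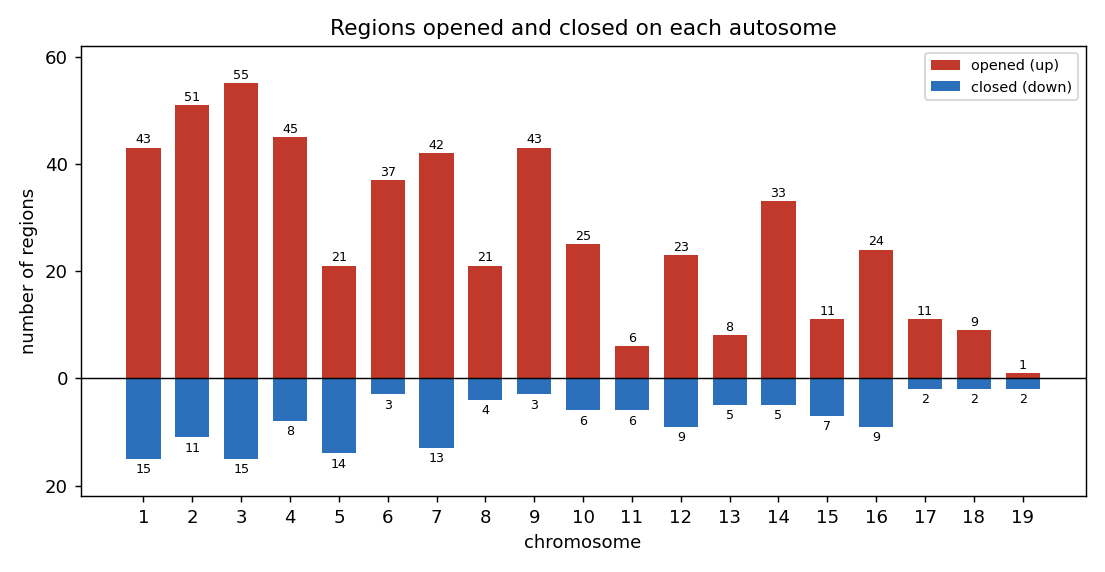
Number of opened regions (red, above 0) and closed regions (blue, below 0) on each autosome. Chromosome 3 has 55 opened regions and chromosome 19 has 1, and closed regions number 15 on chromosomes 1 and 3.

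Among the opened regions nearest to named genes, 4 had a fold enrichment above 4. The strongest, at chr16:11134738-11144303, was annotated to an intron of another transcript. Its centre lay 4.99 kb upstream of the nearest start, that of Txndc11, a thioredoxin-domain protein gene. The fold enrichment of the region was 6.64 in Zbt-KD control, and none of the other 5 lists had a peak there. The next, at chr9:35238867-35309361, held the starts of Rpusd4, a mitochondrial RNA pseudouridine synthase, and of Fam118b. Its fold enrichment was 6.41 in Zbt-KD control and 2.65 in GFP CSDS, and the remaining 4 lists had no peak. Near Gm8579 (chr6:3191963-3214267) the value was 6.21 in Zbt-KD control, but a narrow GFP control peak of 5.81 covered 3.54% of the region. Near Myo3a, an unconventional myosin gene (chr2:21994579-22076368), all 6 lists had a peak, with 5.13 in Zbt-KD control and 4.70 in GFP control over 9.53% of the region. These last entries are opened by width rather than by the absence of any GFP control peak.

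The remaining strong opened regions followed the same division. Cldnd1, which encodes a claudin-domain membrane protein, had its start, with that of the chemokine-receptor-like gene Gpr15, in a region with a fold enrichment of 3.0 and no GFP control peak. Rbp2, a cellular retinol-binding protein gene, had 2.93 with a GFP control peak of 2.22 over 0.756% of the region. Gm1979 had 2.67 with a GFP control peak of 2.39 over 10.4%, and its strongest peak was annotated to the promoter printed above. Washc4, a subunit gene of the endosomal WASH complex, had 2.55 with a GFP control peak of 1.63 over 0.704%. The Washc4 region (chr10:83506779-83610802) also held the start of Aldh1l2, the mitochondrial formyltetrahydrofolate dehydrogenase. A further opened region, named after its values were seen, that held the start of Appl2, an endosomal adaptor gene, followed at chr10:83648579-83671663 with 2.03 and no GFP control peak. Neither region had a peak in the 4 lists not used by the rule. Of the 8 strongest opened regions, 5 held a narrow GFP control peak and 3 were in no list other than the compared ones.

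The widest opened regions were 432 kb near C630028M04Rik, 333 kb near Gask1b, 281 kb near Pou5f1-rs5, 263 kb near Btla and 243 kb at Hgf. The C630028M04Rik and Btla regions held narrow GFP control peaks, and the other 3 held none. The Hgf region (chr5:16424840-16668100) contained the start of hepatocyte growth factor, the ligand of the MET receptor. It had a fold enrichment of 1.90 in Zbt-KD control, 1.88 in Zbt-KD CSDS, 1.97 in GFP CSDS, 2.00 in OE ZBT and 2.01 in OE GFP, and no peak in GFP control. The Btla region contained the starts of Btla, an inhibitory lymphocyte receptor, of the autophagy gene Atg3, and of Ccdc80 and Slc35a5.

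The closed regions were led by one over the start of Kdm4a, a histone H3 lysine demethylase gene (chr4:118155261-118184109). GFP control had a fold enrichment of 2.48 there and Zbt-KD control no peak. The other lists had 2.13 in Zbt-KD CSDS, 1.60 in GFP CSDS, 2.57 in OE ZBT and 2.41 in OE GFP, so only the Zbt-KD control list lacked it. Retnlg, a resistin-like cytokine gene, followed the same pattern, with 2.06 in GFP control and 1.89, 1.74, 1.80 and 2.03 in the other 4 lists in that order. Regions near Gm16223 (2.02) and Dcbld2 (2.02) were also in all lists but Zbt-KD control. The region near Gmnc, a regulator of multiciliated cells, had 2.14 in GFP control, 3.53 in OE ZBT and 2.41 in OE GFP, and no peak in either CSDS list. The remaining strong closed regions lay near Timm8a1 (2.11), Mir6379 (2.11) and Gm4425 (2.02). In all, 4 of the 8 strongest closed regions were in all 4 lists not used by the rule.

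The widest closed region, near Mir6379 (chr3:46975429-47308372), spanned 333 kb and 28 GFP control peaks. It was followed by regions of 119 kb near 4930554G24Rik, 116 kb near Mir124-2hg, 116 kb near 1700025K24Rik and 108 kb near Gm1715. The closed region annotated to a promoter was at Clec4a4, a C-type lectin receptor gene (chr6:122984779-122991357), with 1.78 in GFP control, 2.63 in Zbt-KD CSDS, 1.7 in GFP CSDS and 2.31 in OE ZBT.

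The opened regions at promoters belonged to Gm1979, to the olfactory receptor genes Olfr1247 and Olfr851, and to Ttll11, a tubulin polyglutamylase gene. Olfr1247 and Olfr851 had a fold enrichment of 1.61 each in Zbt-KD control and no peak in any other list. Ttll11 had 1.5 in Zbt-KD control and 1.58 in OE GFP, and no peak in the other 4. Counted by annotated starts in the reference instead, 60 opened regions (11.8%) and 9 closed regions (6.47%) held a coding TSS. For kept regions, which were wider, the shares were 31.2% in Zbt-KD control and 28.1% in GFP control. The shares were not adjusted for region width.

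The beta-globin locus was among the opened regions with a coding TSS. It was named after its values were seen, because the nearest gene of the region, Hbb-bh2, is not on the globin list while its neighbours are. A region of 31.0 kb at chr7:103821873-103852903 held the starts of Hbb-bs, an adult beta-globin gene, of Hbb-bh2, and of Hbb-bh1, an embryonic beta-like globin gene. The start of the embryonic gene Hbb-y lay 313 bp outside it and that of the adult gene Hbb-bt 7.88 kb outside. The fold enrichment was 1.73 in Zbt-KD control, near the median of opened regions, and none of the other 5 lists had a peak in the region. The closest GFP control peak was 263 kb from the start of Hbb-bh1, the closest Zbt-KD CSDS peak 146 kb, and the closest peak of the remaining 3 lists 559 kb or more. The region did not stand alone. The adjoining regions at chr7:103861002-103947375 and chr7:103966873-104022788, which held the starts of 9 olfactory receptor genes, were opened too. The first of these had a fold enrichment of 1.80 and was in no other list, and the second had 1.73 and was also in Zbt-KD CSDS (1.7). Hba-x, Hba-a1 and Hba-a2, the alpha-like globin genes, had no opened region.

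Several genes were nearest to a series of opened regions, and 49 had 3 or more. Tcerg1l, a transcription elongation regulator-like gene, had 9 regions over 319 kb on chromosome 7, with fold enrichments from 1.53 to 2.01. GFP control had no peak nearest to it, while all 9 regions had peaks in GFP CSDS, OE ZBT and OE GFP and 4 in Zbt-KD CSDS. By length these regions were covered at 44.1% in GFP CSDS and 27.4% in Zbt-KD CSDS. All 9 had the same OE ZBT value of 2.14 and may lie in 1 wide OE ZBT peak. Galnt13, a glycosyltransferase gene, had 8 regions on chromosome 2, 7 of them intronic, with 8 present in both OE lists, 7 in GFP CSDS and 2 in Zbt-KD CSDS. By length the Galnt13 regions were covered at 19% in GFP CSDS and 18.5% in Zbt-KD CSDS. Kcnj3, which encodes a G-protein-gated potassium channel subunit, had 8 regions, of which 7 were present in Zbt-KD CSDS, 5 in GFP CSDS and 8 in each OE list. Gm30731 also had 8. Unlike Tcerg1l, Galnt13, Kcnj3 and Gm30731 were also nearest to GFP control peaks, numbering 5, 21 and 27. Kept GFP control regions nearest to them numbered 1, 4 and 1.

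Other loci divided between the lists in other ways. Tyrp1, a melanin synthesis enzyme gene on chromosome 4, had 6 opened regions, and all 6 were present in GFP CSDS, OE ZBT and OE GFP but 0 in Zbt-KD CSDS. The region at the Tyrp1 start had a fold enrichment of 1.80 in Zbt-KD control, 1.84 in GFP CSDS, 1.88 in OE ZBT and 2.07 in OE GFP. Cntnap5a, a contactin-associated protein gene, had 6 regions, all present in Zbt-KD CSDS and 3 in GFP CSDS. The 6 regions nearest to Gm6602 had no peak in any of the 4 lists not used by the rule. 1700023F02Rik had 5 regions, all present in both CSDS lists and in OE ZBT. GFP control peaks also lay nearest to Tyrp1 (25), Cntnap5a (55), Gm6602 (13) and 1700023F02Rik (4). Kept GFP control regions nearest to them numbered 4, 7, 2 and 1 in that order.

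Only 4 genes were nearest to 3 or more closed regions. Pcmtd1, a protein-methyltransferase-domain gene on chromosome 1, had 5, at fold enrichments of 1.62 to 1.71 in GFP control, and none had a peak in any other list. A Zbt-KD control region near the same gene, at chr1:7766514-7783466, was opened. Adgra3, an adhesion G-protein-coupled receptor gene, had 4 closed regions, all present in both OE lists and absent from both CSDS lists. Rag2, a recombinase gene of lymphocytes, had 4, all in OE ZBT, 3 in OE GFP and 0 in the CSDS lists, and the distances from its start were 1740 kb to 1990 kb. Gm16223 had 3, all in both CSDS lists.

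**Figure D4:**
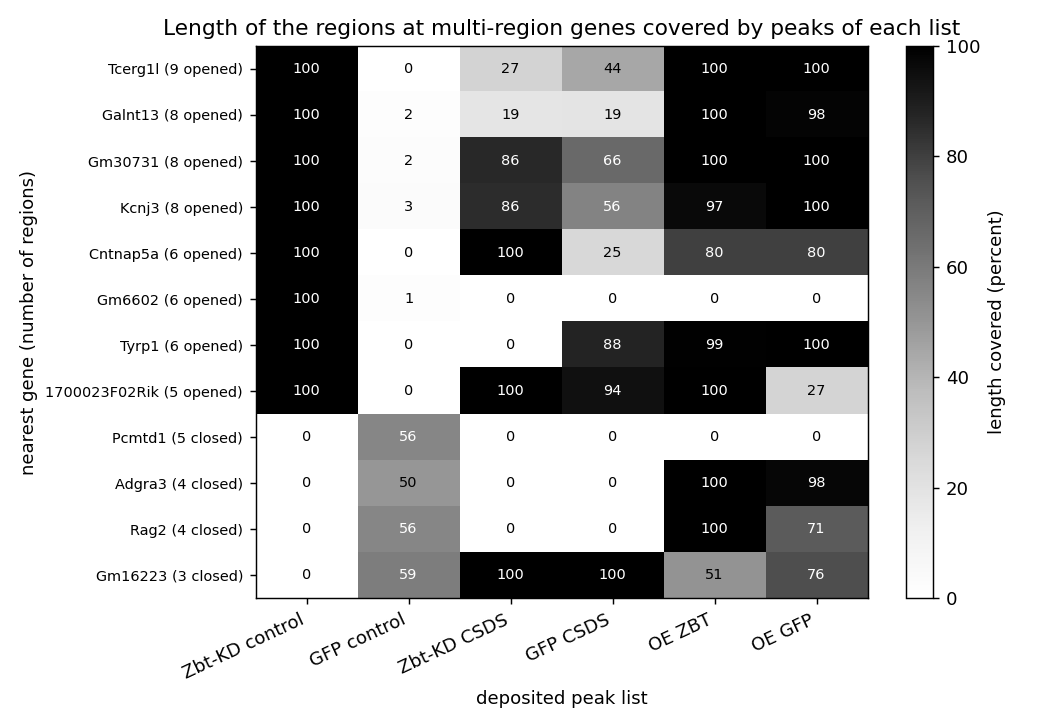
Share of the total length of the opened or closed regions at each multi-region gene (rows, with the number of regions) that deposited peaks of each of the 6 lists cover (columns), in percent from white (0) to black (100). The regions at Gm6602 and Pcmtd1 are covered at 0% in the 4 lists not used by the rule, and those at Tyrp1 at 87.6% in GFP CSDS and 0% in Zbt-KD CSDS.

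The lists not used by the rule tell how often the same regions were found in other astrocyte samples. These lists differed in the length they covered. It was 175.9 Mb in Zbt-KD CSDS, 169.1 Mb in GFP CSDS, 225.6 Mb in OE ZBT and 217.6 Mb in OE GFP. Their peaks differed too. GFP CSDS had 3410 peaks with a median width of 4040 bp, and Zbt-KD CSDS 1184 with 41306 bp. In OE ZBT and OE GFP the median widths were 73104 bp and 53916 bp. A list that covers more is more easily overlapped, and presence needed only 1 bp of any peak. Differences between the lists below are therefore not read as effects of stress or virus. Opened regions overlapped a peak in 51.1% of cases in Zbt-KD CSDS (260 of 509, interval 46.7% to 55.4%), 54.2% in GFP CSDS (49.9% to 58.5%), 59.1% in OE ZBT (54.8% to 63.3%) and 65.4% in OE GFP (61.2% to 69.4%). For closed regions the shares were 45.3% (63 of 139, 37.3% to 53.6%), 42.4% (34.5% to 50.8%), 56.8% (48.5% to 64.8%) and 59.0% (50.7% to 66.8%). Kept Zbt-KD control regions were found in 90.2% to 93.8% of cases. Among regions of 20 kb or narrower 46.5% of opened and 81.2% of kept Zbt-KD control regions were in Zbt-KD CSDS. Kept regions were chosen for being in both compared lists, so a higher share in further lists is partly built into the choice at any width.

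The opened regions were split between the CSDS lists. Of the opened regions, 83 (16.3%) were in Zbt-KD CSDS and not in GFP CSDS, 99 (19.4%) were in GFP CSDS and not in Zbt-KD CSDS, 177 (34.8%) were in both and 150 in neither. The share in Zbt-KD CSDS minus that in GFP CSDS was -3.14 points, and its sign turned, to 6.48 points, when the CSDS lists were brought to the same scale and, to 9.04 points, when at least 50% of a region had to be covered. The regions in Zbt-KD CSDS alone were led by 4930524C18Rik, AA545190 and Tmem38b with 4 each, and those in GFP CSDS alone by Tyrp1 with 6 and Galnt13 and Tcerg1l with 5 each. Of the closed regions, 18 were in Zbt-KD CSDS alone of the CSDS lists, 14 in GFP CSDS alone and 45 in both. For kept Zbt-KD control regions the same counts were 25 (3.16%), 42 (5.3%) and 701 (88.5%). For kept GFP control regions they were 24 (2.9%), 42 (5.08%) and 729 (88.1%). At least 2 of the other 4 lists held 352 opened (69.2%) and 88 closed (63.3%) regions. All 4 held 26.5% of opened and 19.4% of closed regions, against 80.9% of kept Zbt-KD control and 81.5% of kept GFP control regions. None of the 4 held 71 opened regions (13.9%), of which 60 also had no GFP control peak, and 28 closed regions (20.1%). For kept regions this share was 1.52% in Zbt-KD control and 1.57% in GFP control. Among the 71 were 6 regions near Gm6602, 3 near Hnf4g, a nuclear receptor gene, 3 near Vstm2a, and 2 near the chemokine receptor gene Ccr1. These genes were chosen after the counts were seen.

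**Figure D5:**
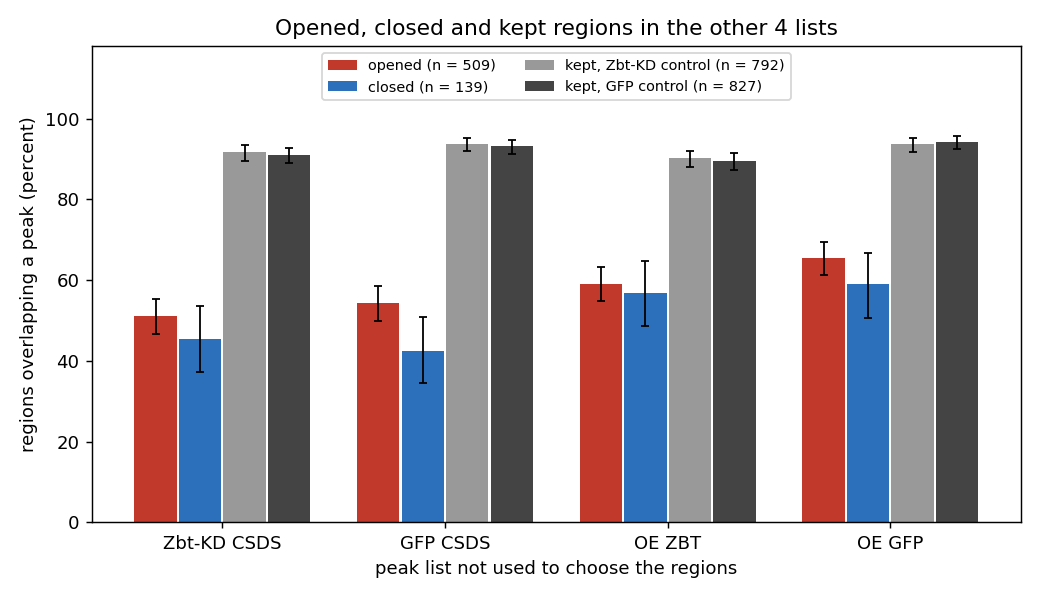
Share of opened (red), closed (blue) and kept regions (grey, Zbt-KD control; dark, GFP control) that overlap a peak of each of the 4 lists not used to choose them, in percent with 95% Wilson intervals. Opened and closed regions lie between 42.4% and 65.4%, and kept regions between 89.5% and 94.2%.

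The nearest genes of all regions numbered 938. Of these, 296 (31.6%) had an opened region and 104 (11.1%) a closed region, and 22 had both. Lists of 12 astrocyte markers, 18 reactive astrocyte genes, 13 NF-kB pathway genes and 15 genes of astrocyte ion and transmitter homeostasis held 0 genes nearest to any region, and the same was true of oligodendrocyte lineage markers, endothelial markers, globin genes and genes the study names in mouse. No peak of either list overlapped an astrocyte marker gene, so the labelled cell type could not be checked in these lists. These genes lay a median of 3220 kb from the closest Zbt-KD control peak and 3075 kb from the closest GFP control peak. Among neuron markers, Map2, a dendritic microtubule protein gene, had 2 opened regions. The one over its start (chr1:66175024-66187316) had a fold enrichment of 2.42 in Zbt-KD control, 1.64 in GFP CSDS, 3.19 in OE ZBT and 3.04 in OE GFP, with no peak in GFP control or Zbt-KD CSDS. The other 9 neuron markers had none. The share of neuronal DNA in the samples was not tested. Of the microglia markers, 0 had an opened or closed region.

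Gene families were read against those background shares. Olfactory and vomeronasal receptor genes numbered 102 among the nearest genes, and 27 (26.5%) had an opened and 6 (5.88%) a closed region. Their opened regions numbered 29, of which 10 were in none of the other 4 lists. On chromosome 2 they included a series, chosen after the values were seen, at Olfr1243, Olfr1247, Olfr1249, Olfr1252 and Olfr48, with fold enrichments of 1.61 to 1.82, and narrow GFP control peaks lay in those of Olfr1243, Olfr1249 and Olfr1252. Synaptic adhesion genes had an opened region in 6 of 12 cases (Adgrl3, Cntn5, Cntnap2, Cntnap5a, Cntnap5c and Lrrc4c) and a closed region in 3 (Cntn5, Cntnap5a and Lrfn5). By annotated starts, 0 genes of this family had their start in an opened or a closed region. The opened regions of Cntnap5a lay 855 kb to 1270 kb from its TSS. Of 20 zinc finger and BTB genes, Zfp947, Zic1 and Zic4 had an opened and Zfp804a a closed region. The start of Zic1 and Zic4, a divergent pair of cerebellar transcription factor genes, lay in an opened region of 69.8 kb. The guidance genes among the nearest genes, Dcc, Epha6 and Unc5d, each had a closed region, at 565 kb, 648 kb and 421 kb from the TSS. By annotated starts instead, 1 guidance gene, Epha1, had its start in an opened region and 0 in a closed one. Solute carriers had 2 opened of 14, immune families 1 (Il7) of 12, and cadherins and protocadherins 1 opened (Pcdh18) and 1 closed (Cdh19) of 6. Predicted and non-coding genes had 86 opened (35.8%) and 29 closed (12.1%) of 240. With counts this small, no family is called different from the background.

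Zbtb7a itself (chr10:81135220-81152995) had no peak in either list. The closest Zbt-KD control peak was 535 kb away and the closest GFP control peak 575 kb. The microRNA acts on the transcript, so these lists do not check the knockdown.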

How the data were processed

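ATAC-seq of MACs-isolated OFC astrocytes was analysed from annotated peak lists, 1 per group of 5 samples. The submitters' notes name HISAT2 and mm10. Per the paper's methods, the authors used reads with a unique alignment, discarded duplicates with SAMtools and ran MACS without its model. Whether samples were merged before or after peak calling is not given in the sources used here. The fold enrichment in the deposited lists is the authors' ratio of signal to background, and their deposited q-value is at most 0.000234 in both lists compared. Depth per sample is unknown.

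The regions, gene lists and rule for named genes were chosen with earlier results of these data known. Annotation classes, nearest genes and TSS distances are those deposited by the authors. Named genes were the 8 strongest and 5 widest regions per direction, promoter regions, genes with 3 or more regions (up to 8 per direction), members of the lists and Zbtb7a. Starts were read as counted from 1, which gave the listed distance for 32 of 59 promoter peaks, against 18 when counted from 0. Composition came from GRCm38.p6, coding TSSs from GENCODE vM21 and promoters from RefSeq. Shares have Wilson intervals, differences Newcombe intervals and medians exact binomial intervals. The comparison was tested on simulated data in which every region met the least width and its pieces lay within the joining gap. Narrow peaks dropped by width were not simulated, so their effect was not tested there. Calculations ran in Python 3.11.15 with scipy 1.17.1, numpy 2.4.6 and pandas 2.3.3, and plots were drawn with matplotlib 3.10.9. Of the alternatives, 18 were planned and 4 were added after seeing the data. One gene family list is not reported here.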

Additional observations from a re-analysis of the deposited data

Results flagged for a closer look

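Chromosome X was outside the comparison, and its regions were examined separately. Joined by the same rule, Zbt-KD control had 182 regions on chromosome X, of which 58 were opened (31.9%, 95% Wilson interval 25.5% to 39.0%). GFP control had 142, of which 19 were closed (13.4%, 8.74% to 20.0%). The autosomal shares were 39.1% and 14.4%. No control sample gives a background for these counts, and the cause was not tested.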

How the results depend on the processing

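The counts of opened and closed regions, 509 and 139 (370 more opened), depended on the scale. Deposited peaks gave 404 opened and 1558 closed, a difference of -1154, with shares of 31.0% and 28.8% (2.26 points). Without a least width 534 were closed, the difference was -131 and the shares 31.0% and 30.5% (0.444 points). The upper 50% of peaks by fold enrichment gave 135 opened and a difference of -64, with shares of 20.4% and 22.6% (-2.23 points). A doubled gap and width gave 232 and 89 (143 more opened), with 28.2% opened and 15.8 points. Overlap with any deposited peak gave 31.0% opened and 16.6 points. Of the alternatives added after seeing the data, an equal number of the strongest regions gave 282 opened and a difference of 97, with 29.2% and 19.2% (10.0 points), and regions of at least 50 kb gave 63 and 14 (49 more), with 11.7% and 2.97% (8.74 points). Promoter shares counted by coding TSSs were 11.8% opened and 6.47% closed, and the intergenic share of opened regions in the upper 50% was 74.8%. With at least 50% of a region covered, 44.6% of opened regions were in Zbt-KD CSDS and 35.6% in GFP CSDS (9.04 points), and 30.2% of closed in GFP CSDS. With all lists at the same scale, 44.6% of opened regions were in GFP CSDS (6.48 points). Both turned the sign of the -3.14 points reported. At 20 kb or narrower, opened regions were in Zbt-KD CSDS in 46.5% and in GFP CSDS in 49.0%, and closed regions in GFP CSDS in 34.1%. Nearest genes of all peaks gave 27.6% of genes opened and 18.5% of receptors opened, and genes within 10 kb gave 23.8% opened and 3.88% closed. The causes were not tested. Of 100 planned values, 65 moved by less than their interval or within 1.5 times, 29 moved further and 6 changed sign, and of 25 added values 10 and 15 did the first and the second. No paired analysis was possible because each group has 1 deposited peak list with no values per sample, and for the same reason no sample could be left out.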
